A study of Mus musculus with 10 samples.

Results

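The 10 genes described here encode acute phase proteins, plasma proteins that the liver releases in larger amounts after injury or infection. They were taken by their exact symbols, Saa1, Saa2, Saa3, Hp, Hpx, Orm1, Orm2, Lcn2, Fga and Fgg, from the 31053 genes measured by Visium spatial transcriptomics in 10 sections of 7 mouse tissues. Across the tissues the genes fell into distinct patterns: the serum amyloid A genes Saa1 and Saa2 and the orosomucoid genes were lowest in the tissue NEJ723 and highest in NEJ654 or NEJ677, Hp and Hpx stayed within 2.07-fold and 1.65-fold, and Saa3 and Lcn2 ran in another order. Within the tissue NEJ146, Hp was among the most ordered genes in space by Moran's I, at a 7.0-fold higher level in its high regions than in its low ones. That order was among the earlier results known when the genes were chosen. By a second measure, the variation shared by adjacent spots, Hp came 283rd of 7515 genes. A high place by Moran's I was not particular to NEJ146, since Hp also came 4th of 8342 genes in NEJ723 and 8th of 8163 in NEJ687.

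In the acute phase response, interleukin-6 and interleukin-1 from macrophages act on hepatocytes, where the transcription factor STAT3, the C/EBP factors and NF-kB raise the output of these genes. The products scavenge free hemoglobin and heme, bind lipids and drugs, withhold iron from bacteria and form clots, while the levels of the so-called negative acute phase proteins, such as albumin and transthyretin, go down. In a healthy lobule hepatocytes differ in their genes from the portal vein to the central vein, and tumours that arise from hepatocytes can keep, lose or shift such programs.

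The study built a model of hepatoblastoma, a childhood liver cancer, called ABC-Myc, in C57BL/6J mice. Alb-Cre, active in albumin-expressing liver cells, removes a stop cassette so that human MYC is expressed from the CAG promoter. The labels call all 10 sections hepatoblastoma and give neither genotype nor age for a section, while the study's text names NEJ634, NEJ687, NEJ723 and NEJ146 as tumours and speaks of 3 healthy livers without naming them. By elimination these livers would be NEJ638, NEJ654 and NEJ677, although the labels call them hepatoblastoma too. Each tissue was therefore kept as its own group, with no test between tissues. NEJ146 was sampled as 4 adjacent sections of the same tumour and each other tissue as 1 section, so the spread over sections is technical and regional and says nothing of the spread between mice. NEJ146 was also labelled as total RNA and the others as polyA RNA, with different software, and this cannot be told apart from the tissue. The embryonic liver genes Afp and Igf2 ran at 2023 and 81.9 CPM (UMI counts scaled to 1000000 per section, UMIs being counted molecules) in NEJ146 and at 3280 to 4248 and 267 to 435 CPM in NEJ634, NEJ723 and NEJ687. The other 3 tissues held 3.79 to 9.63 CPM of Afp and 0.117 to 0.255 CPM of Igf2, so markers of the labelled hepatoblastoma were nearly absent from NEJ638, NEJ654 and NEJ677.

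The stretches just upstream of 4 members are shown because the serum amyloid A genes and the fibrinogen genes went separate ways in the results. They are RefSeq sequences of build GRCm38.p6, written 5′ to 3′ on the strand of the gene and cut where the GENCODE gene begins. Capitals mark matches to TTGCNNAA, a C/EBP motif, or to TTCNNNGAA, a STAT motif, each searched on both strands without overlap between them. Saa1 lies at chr7:46742981-46743230 on the minus strand, Saa2 at chr7:46751583-46751789 on the plus strand, Saa3 at chr7:46715701-46715926 on the minus strand and Fga at chr3:83025903-83026075 on the plus strand.
Saa1: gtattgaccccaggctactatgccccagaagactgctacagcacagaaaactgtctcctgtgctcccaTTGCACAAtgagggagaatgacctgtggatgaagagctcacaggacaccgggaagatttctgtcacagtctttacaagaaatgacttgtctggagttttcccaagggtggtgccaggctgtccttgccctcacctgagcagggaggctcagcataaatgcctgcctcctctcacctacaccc
Saa2: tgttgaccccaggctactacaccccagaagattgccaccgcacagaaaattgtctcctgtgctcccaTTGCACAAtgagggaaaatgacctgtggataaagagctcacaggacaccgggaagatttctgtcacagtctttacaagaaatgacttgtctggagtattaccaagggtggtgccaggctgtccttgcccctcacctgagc
Saa3: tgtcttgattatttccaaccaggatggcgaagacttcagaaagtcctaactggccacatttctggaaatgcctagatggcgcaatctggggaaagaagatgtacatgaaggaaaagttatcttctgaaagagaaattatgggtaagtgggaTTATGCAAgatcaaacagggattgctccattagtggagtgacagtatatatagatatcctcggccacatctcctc
Fga: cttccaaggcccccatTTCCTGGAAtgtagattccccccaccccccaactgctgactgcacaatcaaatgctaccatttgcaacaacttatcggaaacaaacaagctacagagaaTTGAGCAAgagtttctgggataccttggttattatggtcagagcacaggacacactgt

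Of the 10 members, 8 were listed with a window of 250 bases before the RefSeq start, and 7 of these held the C/EBP letters, against 9.55% of 27025 promoters. Fgg was the member without them. The STAT letters were found in the Fga window and in 7.18% of all promoters. Fga was also the member with both motifs, which 0.770% of promoters held. RefSeq and GENCODE starts differ for 5 of the 8: the windows of Saa2, Saa3, Hpx and Fga run into the GENCODE gene, and that of Lcn2 lies wholly inside it. The Saa1 and Saa2 windows were 94.8% identical, while the Saa1 and Saa3 windows were 52.5% identical. A match of letters is a description of the window and not a mapped binding site.

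The members sit in clusters of the genome. On chromosome 7 of GRCm38, Saa3 (start 46711998, end 46715700), Saa1 (46740497 to 46742980) and Saa2 (46751790 to 46754313) lie in 1 cluster, with Saa4 between Saa3 and Saa1 and with Saa1 and Saa2 read from opposite strands. Orm1 (63344560 to 63348163) and Orm2 (63362449 to 63365878) flank Orm3 on chromosome 4, and Fgg (83007724 to 83015049) and Fga (83026076 to 83033627) lie beside Fgb on chromosome 3. Hp (109575128 to 109579172) is on chromosome 8, Lcn2 (32384633 to 32388252) on chromosome 2 and Hpx (105591613 to 105600137) on chromosome 7. The Saa1 and Saa2 transcripts are 93.9% identical, and those of Orm1 and Orm2 91.0% identical with 97.7% over the last 300 bases, so reads may be split between these copies and their separate counts are uncertain.

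Each slide held up to 4992 barcoded spots, of which 1890 to 4878 lay over tissue, with a median of 12133.5 to 28926.5 unique molecular identifiers (UMIs) per tissue spot. A spot covers several cells, and fewer cells of a type cannot be told apart from less RNA per cell. Spot barcodes are fixed by the slide design, and 4989 of the 4992 occur in all 10 sections. Levels are given as CPM over the tissue spots, with exact Poisson 95% intervals that cover counting error only. In NEJ723, NEJ687, NEJ638, NEJ654 and NEJ677, 3 to 361 tissue spots had fewer than 500 UMIs, and counts of spatially ordered genes are given with and without these spots.

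Saa1 and Saa2 encode serum amyloid A proteins that ride on high-density lipoprotein and are the steepest responders of the mouse acute phase. Saa1 stood at 17.5, 16.9, 17.5 and 14.3 CPM in the 4 sections of NEJ146, at 27.4 CPM in NEJ634, 0.550 CPM in NEJ723, 23.7 CPM in NEJ687, 53.4 CPM in NEJ638, 133 CPM in NEJ654 and 172 CPM in NEJ677. NEJ723 thus lay far below every other section, on 24 UMIs with an interval of 0.352 to 0.818 CPM, and NEJ677 was 312-fold above it. The spots of the NEJ723 slide outside the tissue held 3 Saa1 UMIs, or 0.115 CPM, so the low level was not limited to spots called tissue.

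Saa2 followed Saa1, at 7.98 ± 0.799 CPM (SD, n = 4 sections) in NEJ146 and 12, 0.160, 8.67, 19.7, 26.4 and 53.0 CPM in NEJ634, NEJ723, NEJ687, NEJ638, NEJ654 and NEJ677. The order of the 7 tissues was the same for both genes, although the NEJ146 sections, at 7.18 to 9.07 CPM, took in NEJ687 for Saa2. The level in NEJ723 rested on 7 UMIs, with an interval of 0.0645 to 0.330 CPM. Saa2 did not keep a fixed proportion to Saa1: 0.489 ± 0.0988 Saa2 UMIs were counted per Saa1 UMI in NEJ146, against 0.199 in NEJ654.

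Saa3, an amyloid A protein made mainly by macrophages, fat cells and epithelia and little by resting hepatocytes, was distributed differently. Its level was 24.4, 28.2, 26.0 and 18.1 CPM in the sections of NEJ146, 127 CPM in NEJ634, 41.8 CPM in NEJ723, 37.0 CPM in NEJ687, 2.93 CPM in NEJ638, 10.3 CPM in NEJ654 and 9.88 CPM in NEJ677. NEJ634 was highest, 43.5-fold above NEJ638, and NEJ723, which had almost no Saa1, came next. NEJ654 and NEJ677 did not differ beyond counting error, at 9.32 to 11.3 and 8.92 to 10.9 CPM.

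Hp encodes haptoglobin, which binds hemoglobin freed from red cells so that macrophages can take it up through CD163. The 4 sections of NEJ146 gave 2106, 2167, 1914 and 1205 CPM, and the other tissues 1813 CPM in NEJ634, 1567 CPM in NEJ723, 3240 CPM in NEJ687, 2089 CPM in NEJ638, 2044 CPM in NEJ654 and 2540 CPM in NEJ677. NEJ634, NEJ723, NEJ638 and NEJ654 all fell inside the range of the NEJ146 sections, so their order is not resolved, and NEJ687 and NEJ677 lay above it.

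Hpx encodes hemopexin, which carries heme to the hepatocyte receptor LRP1. It stood at 1991 ± 490 CPM (SD, n = 4) in NEJ146, 1828 CPM in NEJ634, 1907 CPM in NEJ723, 2783 CPM in NEJ687, 2760 CPM in NEJ638, 2451 CPM in NEJ654 and 3024 CPM in NEJ677. The sections of NEJ146 ran from 1280 to 2386 CPM and took in NEJ634 and NEJ723. Hpx was counted at 0.859 to 1.32 UMIs per Hp UMI in all 7 tissues, a narrower span than either gene's own range over tissues.

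Orm1 and Orm2 encode orosomucoids, or alpha-1-acid glycoproteins, which bind lipophilic compounds in plasma. Orm1 reached 246, 254, 230 and 163 CPM in the sections of NEJ146, 44.8 CPM in NEJ634, 8.96 CPM in NEJ723, 153 CPM in NEJ687, 242 CPM in NEJ638, 894 CPM in NEJ654 and 1260 CPM in NEJ677. As for Saa1, NEJ723 was lowest and NEJ677 highest, here 141-fold apart, but NEJ146 lay above NEJ634 and took in NEJ638. Orm2 ran at 7.04 ± 1.83 CPM (SD, n = 4) in NEJ146 and 3.96, 10.5, 12.3, 36.9 and 35.7 CPM in NEJ634, NEJ687, NEJ638, NEJ654 and NEJ677. In NEJ723 it was counted on 2 UMIs, or 0.0458 CPM with an interval of 0.00555 to 0.166. NEJ654 and NEJ677 did not differ beyond counting error for Orm2.

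Lcn2 encodes lipocalin-2, which sequesters bacterial siderophores and is made by stimulated hepatocytes and stored by neutrophils. Its level was 80.1, 124, 99.5 and 57.6 CPM in NEJ146, 140 CPM in NEJ634, 148 CPM in NEJ723, 159 CPM in NEJ687, 22.0 CPM in NEJ638, 22.1 CPM in NEJ654 and 10.998 CPM in NEJ677. The 3 tissues with little Afp were thus the 3 lowest, and NEJ687 stood 14.5-fold above NEJ677. The summed level of 10 neutrophil genes was also lowest in these 3 tissues, at 281 to 467 CPM in NEJ146, 450 to 1195 CPM in NEJ634, NEJ723 and NEJ687, and 9.80 to 24.5 CPM in NEJ638, NEJ654 and NEJ677. Of the 10 neutrophil genes, 8 reached a mean of 10 CPM over the tissues. Macrophage and proliferation sums were lowest in the same 3 tissues, at 463 to 762 and 24.1 to 126 CPM. The macrophage genes were split, with NEJ638 the lowest tissue for 6 of the 10 and NEJ723 for 4. Clec4f stood at 0.275 CPM in NEJ723 and at 77.1 to 152 CPM in NEJ638, NEJ654 and NEJ677. NEJ723 lay inside the NEJ146 range for the neutrophil sum but above every NEJ146 section for Lcn2. The part of these cells in the Lcn2 level was not tested.

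Fga and Fgg encode the alpha and gamma chains of fibrinogen, the precursor of fibrin clots. Fga stood at 1396, 1245, 1245 and 1085 CPM in NEJ146, 1101 CPM in NEJ634, 1057 CPM in NEJ723, 3297 CPM in NEJ687, 1924 CPM in NEJ638, 3202 CPM in NEJ654 and 3547 CPM in NEJ677. Here NEJ687 lay with NEJ654 and NEJ677, NEJ634 fell inside the NEJ146 range, and the highest tissue was 3.36-fold above the lowest. Fgg tracked Fga, at 1343 ± 129 CPM (SD, n = 4) in NEJ146 and 1208, 1126, 3499, 2014, 3382 and 3508 CPM in NEJ634, NEJ723, NEJ687, NEJ638, NEJ654 and NEJ677. Between 0.989 and 1.10 Fgg UMIs were counted per Fga UMI in every tissue. Fgb, the remaining chain, had its highest and lowest levels in NEJ687 and NEJ723, at 5104 and 1737 CPM, and stood at 5068 CPM in NEJ677.

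**Figure D1:**
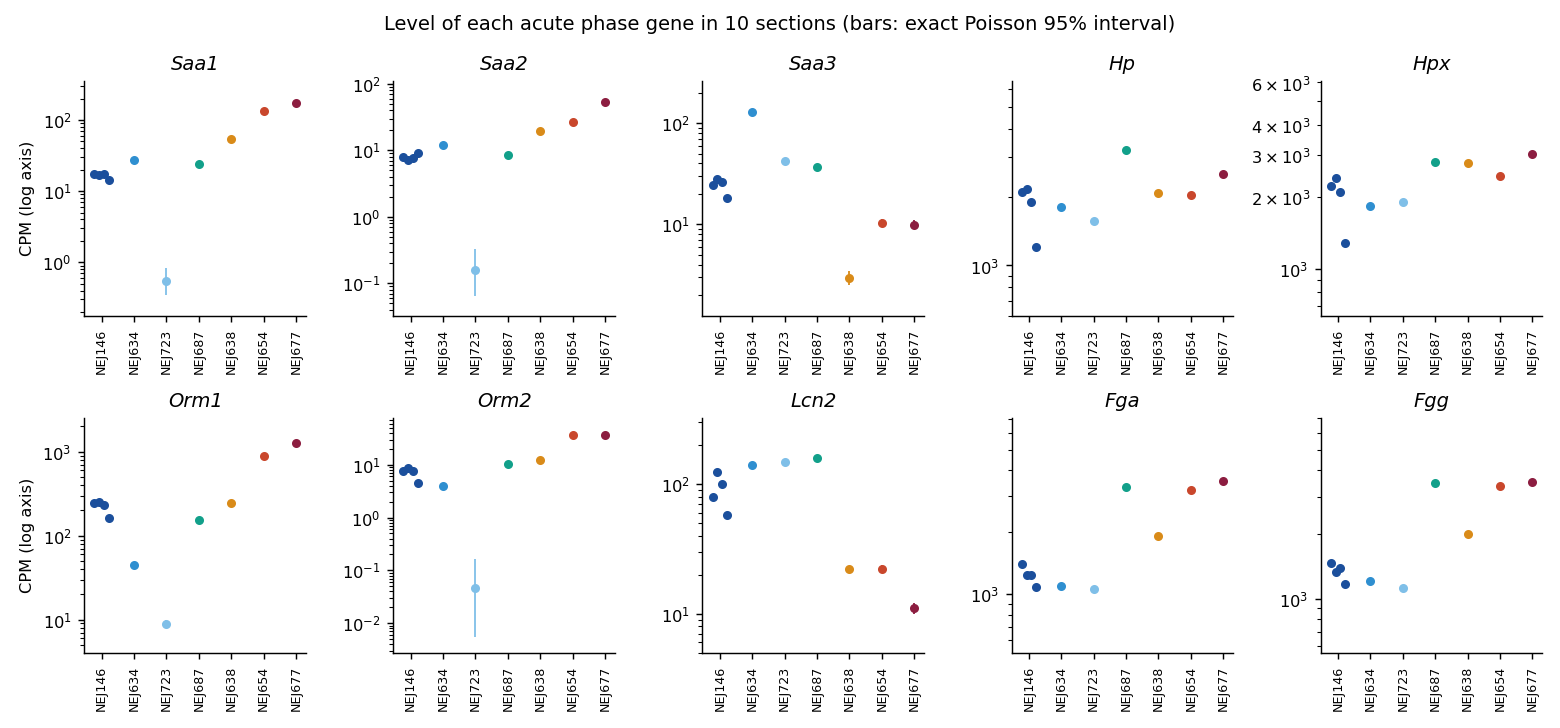
Level of each member in CPM on a log axis for the 10 sections, with exact Poisson 95% intervals as bars where they are wider than the points and the 4 sections of NEJ146 side by side. NEJ723 sits far below the rest for Saa1, Saa2, Orm1 and Orm2, the Lcn2 levels of 10.998 to 22.1 CPM are those of NEJ638, NEJ654 and NEJ677, and Hp and Hpx stay within 2.07-fold and 1.65-fold over the tissue means.

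To set these ranges against the spread between adjacent sections, the range of log2(CPM + 1) over the 7 tissues was compared with 10 times the SD over the NEJ146 sections, taking the larger of the gene's own SD and the median SD of all genes. By this rule of size, which is no test, 7 of the 10 members went beyond the section spread, and so did 62.9% of the 8021 genes with a mean of 10 CPM or more. All 10 members passed that filter on level, but Saa2 and Orm2 did so only through NEJ654 and NEJ677, where they were highest. The upper ends of their ranges lay in the same tissues, so their place among the 7 is not independent of the filter. The share of members was close to this background. The median log2 range was 4.39 for the members and 1.22 for all genes, but the members were split, with Hpx, Hp, Fgg and Fga at 0.73 to 1.75 and the others at 3.74 or more, and other lists had ranges as large, 5.96 for the neutrophil and 4.77 for the proliferation genes. Hp, Hpx and Lcn2 did not go beyond the spread, at 2.66, 1.79 and 8.04 times the SD. The count was 4 among genes with a mean of 50 CPM or more, 3 at 20 times the SD, and 5 to 9 when an NEJ146 section was left out. Saa2, Saa3 and Orm2, with means of 18.3, 36.2 and 15.2 CPM, do not reach 50 CPM and left the count there. The share of all genes was not set beside these counts, so they are not read as a change particular to the members. NEJ677 was the highest tissue for 6 members and for 7.99% of the genes, and NEJ723 the lowest for 7 members and for 15.1% of the genes. Saa2 is 1 of the 6, so its place there is not independent of the filter either, and its reads may be split with those of Saa1. Not all of these places are resolved. Hp in NEJ723 lay inside the range of the NEJ146 sections, and the Fgg intervals of NEJ677 and NEJ687 overlapped.

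The pathway around the members was read from fixed lists. Of 26 further acute phase genes, 23 passed the filter and 13 went beyond the section spread, against 62.9% of all genes. Their median log2 range was 2.10. NEJ723 was the lowest tissue for 11 of the 23, against 15.1% of all genes. Pigr, the receptor that carries dimeric immunoglobulin A across epithelia, shared the Saa1 and Orm1 extremes in part, at 3.78 CPM in NEJ723 and 358 to 538 CPM in NEJ677 and NEJ654. Hamp, the iron hormone hepcidin, did not: it was lowest in NEJ638, at 9.59 CPM, and reached 1540 CPM in NEJ634. The inter-alpha-trypsin inhibitor chain Itih1 stood at 29.2 to 65.5 CPM in NEJ146, NEJ634, NEJ723 and NEJ687 and at 540 to 648 CPM in the other 3 tissues.

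Of 11 negative acute phase genes, all passed and 6 went beyond the spread, against 62.9% of all genes. Their summed level was 40671 to 61347 CPM in NEJ146, NEJ634, NEJ723 and NEJ687 against 141345 to 177236 CPM in NEJ638, NEJ654 and NEJ677. Alb differed most, at 7839 to 13131 CPM against 51663 to 85700 CPM. Rbp4, Serpinc1, F12, Serpina6 and Fetub did not separate these tissues, while the other genes of the list did. The members were mixed in their relation to this list: Saa1 and Orm1 were highest in NEJ677 and NEJ654, where the negative list was high too, while Saa3 and Lcn2 were low in the 3 tissues where it was high. Of 20 signalling genes, 12 passed and 5 went beyond the spread, against 62.9% of all genes: Lifr, Il1r1, Il1rap, Cebpa and Cebpb. Lifr and Il1rap, receptor chains for the leukemia inhibitory factor and interleukin-1 families, were at 20.3 to 31.2 and 16.7 to 25.7 CPM in NEJ146, NEJ634, NEJ723 and NEJ687 and at 236 to 450 and 109 to 112 CPM in the other 3 tissues. Cebpb, a C/EBP factor of the acute phase, was lowest in NEJ723, at 60.2 CPM against 85.7 to 191 CPM elsewhere. Stat3 stayed between 60.3 and 89.2 CPM. Il6 was at 0 to 0.102 CPM in all tissues, too low to order them.

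The arrangement of each member in the tissue was measured by Moran's I, a correlation between a spot and its adjacent spots that is near 0 without pattern. In NEJ146, Hp had a Moran's I of 0.821 ± 0.0312 (SD, n = 4), which placed it 4th among the 7515 genes at 10 CPM or more. This high order of Hp was known when the members were chosen. Hpx stood at 0.772, in 10th place, and Orm1 at 0.705, in 26th place. Lcn2 (0.480), Fga (0.427) and Fgg (0.408) followed, and Saa1 (0.295), Saa2 (0.278), Orm2 (0.180) and Saa3 (0.124) were lower. With all tissue spots kept, Hp also came 4th of 8342 genes in NEJ723 and 8th of 8163 in NEJ687. Its places were 55th in NEJ634, 77th in NEJ638, 98th in NEJ654 and 136th in NEJ677.

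At a threshold of 0.1, 8 of the 8 members tested in NEJ146 were ordered, against 15.2% of the genes. In NEJ634 it was 9 of 9 against 13.7%, in NEJ723 6 of 6 against 26.6%, in NEJ687 8 of 9 against 20.9%, in NEJ638 7 of 9 against 7.2%, in NEJ654 7 of 10 against 4.49% and in NEJ677 7 of 9 against 15.3%. Members below 10 CPM in a tissue were not counted there. Without the spots of fewer than 500 UMIs, fewer genes passed: NEJ723 had 5 of 6 members against 3.06% of the genes, NEJ687 8 of 9 against 4.53%, NEJ638 5 of 9 against 3.35%, NEJ654 7 of 10 against 4.38% and NEJ677 6 of 9 against 3.75%. The members no longer counted were Saa3 in NEJ723, Fga and Fgg in NEJ638 and Hp in NEJ677. Moran's I of such values rises with the level of a gene and the genes were not matched on level, so the shares are not read as particular to the members. Without the low spots the Moran's I of Hp went from 0.670 to 0.279 in NEJ723, from 0.280 to 0.155 in NEJ638 and from 0.319 to 0.0569 in NEJ677, and that of Fga went from 0.313 to 0.0903 in NEJ638. In NEJ687 Hp went from 0.519 to 0.457, and NEJ634, with Hp at 0.551, had no such spots. With every spot thinned to 2000 UMIs, the count of combinations of member and tissue past the threshold was 16 in place of 52 (18 in another random draw), against 0.943% of all combinations of gene and tissue.

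**Figure D2:**
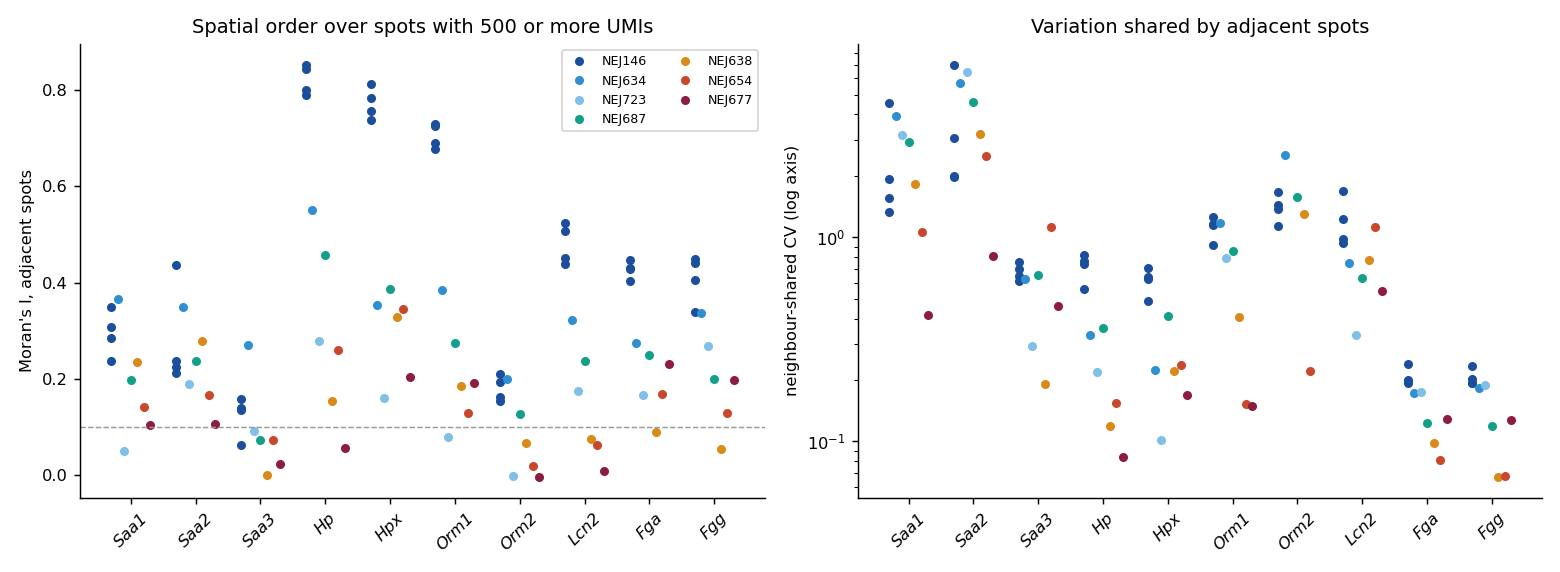
Spatial order of the members in each section: Moran's I between adjacent spots of 500 or more UMIs on the left, with the threshold of 0.1 dashed, and the coefficient of variation shared by adjacent spots on a log axis on the right. The Hp and Hpx points of NEJ146 stand above those of the other tissues on the left, and on the right Saa2 is the highest member in every tissue, at 5.73 in NEJ634 and 0.812 in NEJ677, though on 7 UMIs in NEJ723.

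A second measure, the coefficient of variation that adjacent spots share about the expectation from their UMI totals, is not raised by counting noise. By this measure Saa2 and Saa1 came 1st and 2nd of 8537 genes in NEJ634, at 5.73 and 3.95. Saa2 stood there at 12 CPM, little above the filter of 10 CPM. The 1% of spots whose adjacent spots held the largest Saa2 share had 51.2% of its UMIs. Its place in NEJ634 is therefore not independent of the filter. Saa2 came 2nd of 7031 genes in NEJ654, at 2.49, and 3rd of 7406 genes in NEJ638, at 3.20. Saa1 came 3rd of 8163 genes in NEJ687, at 2.94, so Saa1 or Saa2 ranked within the first 3 genes in 4 tissues. In NEJ146 Saa1 came 8th of 7515 genes, at 2.68 ± 1.5 (SD, n = 4), but its sections gave 1.55, 1.33, 1.92 and 4.56, and without section 4 it was at 1.62 in 29th place. In NEJ677, where both were most abundant, Saa2 came 12th of 6754 genes, at 0.812, and Saa1 91st, at 0.416.

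Hp varied less than Saa1 and Saa2 by this measure. Its shared coefficient of variation was 0.727 ± 0.114 in NEJ146, in 283rd place of 7515 genes, against 0.332 in NEJ634, 0.219 in NEJ723, 0.360 in NEJ687, 0.119 in NEJ638, 0.155 in NEJ654 and 0.0837 in NEJ677. All 4 sections of NEJ146 lay above the other tissues. Saa3 was close to Hp in NEJ146, at 0.680 ± 0.0643. Fga and Fgg were the most even members in NEJ146, at 0.208 and 0.206.

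**Figure D3:**
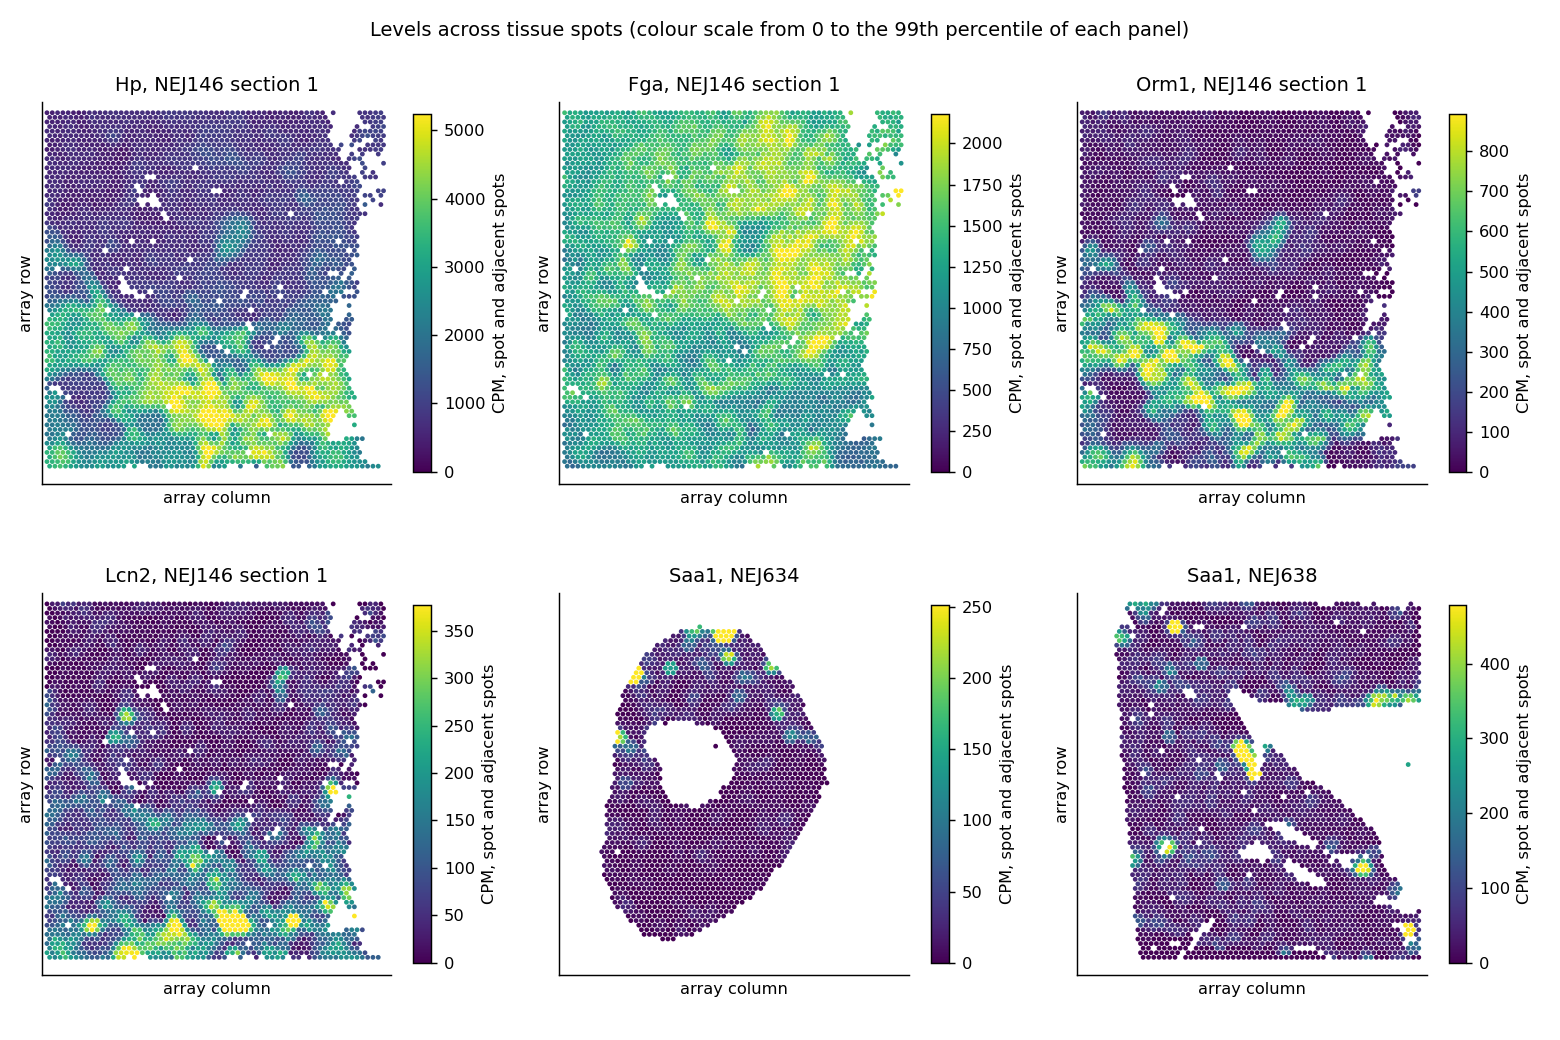
Maps of CPM in each tissue spot and its adjacent spots, by array row and column, with a colour scale from 0 to the 99th percentile of each panel. In NEJ146 section 1, Hp and Orm1 are high in the lower part of the section and Fga in the upper part, and in NEJ634 and NEJ638 Saa1 is high in a few small patches.

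The regions of high Hp in NEJ146 were described by sorting spots into quintiles by the Hp share of the adjacent spots, leaving out the spot itself. Hp rose from 531 ± 127 CPM in the lowest quintile to 3648 ± 663 CPM in the highest, a ratio of 7.0 ± 0.918 (SD, n = 4), and the highest quintile held 49.5% of Hp UMIs. The ratio was 5.64 to 7.60 in the individual sections. Elsewhere the same ratio was 2.63 in NEJ634, 2.54 in NEJ687, 1.87 in NEJ723, 1.45 in NEJ654, 1.34 in NEJ638 and 1.17 in NEJ677.

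Of the 9 other members, 7 reached 10 CPM in NEJ146, and 5 of the 7 (Saa1, Saa3, Hpx, Orm1 and Lcn2) were at least 2-fold higher in the high Hp quintile in all 4 sections, against 5.28% of the genes. None was 2-fold lower, against 1.38%. Orm1 rose from 43.0 to 531 CPM, a ratio of 12.6 ± 1.84, and 59.5% of its UMIs lay in the highest quintile. Saa1 rose from 1.80 to 42.3 CPM, with ratios of 14.8 to 45.8 that differed widely between sections. Lcn2 rose 6.48-fold, Hpx 4.38-fold and Saa3 3.22-fold. The fibrinogen chains did not pass the rule in either direction, at ratios of 0.833 ± 0.0351 for Fga and 0.819 ± 0.0172 for Fgg.

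Other genes of the lists marked the same regions. Pigr rose 18.8-fold from the lowest to the highest Hp quintile, the protease inhibitor Serpina3m 6.12-fold and the ferrireductase Steap4 4.99-fold, and 7 of 23 further acute phase genes passed the 2-fold rule in all 4 sections. Of the 11 negative acute phase genes only Alb did, at 4.4-fold. The cytochrome Cyp2e1 of mature pericentral hepatocytes rose 14.9-fold, and Afp was at a ratio of 0.433. Sums of marker genes moved as well: the bile duct list went from 17.0 to 237 CPM, stromal genes from 243 to 799 CPM, adult globin genes from 19360 to 2765 CPM, and proliferation genes to a ratio of 0.551. Of the 5 bile duct genes Spp1, the gene of osteopontin, was the one above 10 CPM in NEJ146, at 109.7 CPM, so this sum is mostly Spp1. Macrophage and neutrophil sums stayed at ratios of 0.961 and 0.948. The part of these cell types in the Hp pattern was not tested, and neither was that of the adult globin genes, red cell products whose protein is the ligand of haptoglobin.

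In Hp quintiles of the other tissues the members differed in degree. In NEJ634 Saa1 was 19.6-fold, Orm1 5.71-fold, Lcn2 2.48-fold and Fga 1.16-fold higher in the highest quintile. NEJ687 gave 8.71-fold for Saa1, 4.57-fold for Orm1, 2.33-fold for Hpx and 0.933-fold for Fga. NEJ723, where Hp differed by 1.87-fold, gave 2.40-fold for Orm1, 1.3-fold for Fga and 1.24-fold for Hpx, with too few Saa1 UMIs for a ratio. NEJ677, where Hp itself differed by 1.17-fold, had Orm1 at 0.986 and Saa1 at 1.44.

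The patches of Saa1 were described by the 1% of spots whose adjacent spots held the largest Saa1 share, again leaving out the spot itself. In NEJ634, 18 such spots held 35.3% of all Saa1 UMIs, at 828 CPM against 17.9 CPM in the rest, a ratio of 46.3 (95% interval 41.7 to 51.5). In NEJ687, 40 spots held 27.9%, at 514 CPM against 17.3 CPM. In NEJ638, 33 spots held 13.2%, and in NEJ654, 23 spots held 7.60%. In NEJ677 no such patch was seen: 24 spots held 1.12%, at a ratio of 1.18 (interval 0.925 to 1.48). The sections of NEJ146 gave 6.61%, 7.37%, 11.4% and 30.0%, with section 4 apart from the other 3.

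Within the Saa1 patches the other members differed in degree. Saa2 was 8.37-fold to 85.5-fold higher there in every tissue but NEJ677, where it was 1.76-fold higher, and NEJ723, whose counts were too few. Orm2 was 20.2-fold higher in the patches of NEJ634 and 10.8-fold in those of NEJ638, while Orm1 was 8.31-fold and 1.41-fold higher. Lcn2 was 3.31-fold higher in NEJ634, 2.21-fold in NEJ687, 6.81-fold in NEJ638 and 9.13-fold in NEJ654. Hp differed by 1.38-fold to 1.78-fold in these 4 tissues and Fga by 1.11-fold to 1.27-fold, well under the ratios of Saa1 and Saa2.

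The cell type markers in the Saa1 patches were not the same from tissue to tissue. The bile duct list, most of which was Spp1 in every tissue but NEJ723 (121 of 136 CPM in NEJ638), was 4.81-fold higher in the patches of NEJ638, 4.65-fold in NEJ687 and 4.42-fold, 1.60-fold, 1.04-fold and 6.12-fold in sections 1 to 4 of NEJ146, but 0.690-fold in NEJ634 and 0.202-fold in NEJ654. Neutrophil genes were 17.5-fold higher in the patches of NEJ654, at 164 CPM against 9.38 CPM, and 2.68-fold in NEJ638. In NEJ634 and NEJ687 they were at ratios of 1.15 and 0.875. In the NEJ146 sections the neutrophil ratios were 0.640, 1.12, 1.53 and 0.268. Stromal genes were at 2.26 in NEJ638, 1.60 in NEJ687 and 1.254 to 2.50 in NEJ146 but at 0.804, 0.820 and 0.996 in NEJ634, NEJ654 and NEJ677, and macrophage genes at 0.900 to 1.22 in all patches examined. The part of these cell types in the patches was not tested.

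Lcn2 patches held 4.29% to 14.4% of the Lcn2 UMIs in the sections of NEJ146 and 8.43%, 6.76%, 5.12%, 4.23% and 1.43% in NEJ654, NEJ634, NEJ638, NEJ687 and NEJ723. Neutrophil genes were 4.84-fold to 26.1-fold higher in the Lcn2 patches of NEJ146, 16.7-fold in NEJ634, 17.8-fold in NEJ654, 5.45-fold in NEJ687 and 2.34-fold in NEJ723. The bile duct list was higher in many of these patches too, at 9.32, 2.82, 1.39 and 5.85 in sections 1 to 4 of NEJ146, 6.16 in NEJ687, 1.92 in NEJ634 and 1.75 in NEJ723, and stromal genes were at 1.61 to 3.31 in NEJ146, 2.17 in NEJ687, 1.76 in NEJ634 and 1.27 in NEJ723. In NEJ654 these lists were at 1.01 and 0.814. Macrophage genes were at 1.29 to 1.74 in the Lcn2 patches of NEJ146, 1.44 in NEJ634 and 1.42 in NEJ723. They were at 1.04 to 1.13 in NEJ687, NEJ654 and NEJ638. In NEJ638 the neutrophil ratio was 1.03, the bile duct ratio 4.53 and the stromal ratio 2.89, with Saa1 16.2-fold and Saa2 36.2-fold higher in the same spots. In Saa3 patches neutrophil genes were at ratios of 0.321 to 0.815 in NEJ146, 0.305 in NEJ634 and 0.627 in NEJ687 but 2.87 in NEJ723, and stromal genes at 1.62 to 2.29, 1.72 and 1.34 but 0.720 in NEJ723. Macrophage genes were at 0.918 to 1.08 in the Saa3 patches of NEJ146 and at 0.727, 0.882 and 1.11 in those of NEJ634, NEJ723 and NEJ687. The bile duct list was at 3.34 in NEJ687 and at 0.649 to 1.14 in the other tissues with Saa3 patches. The part of these cell types was not tested.

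Position in the lobule was read from 5 periportal genes (Cyp2f2, Hal, Hsd17b13, Ass1 and Pck1) and 5 pericentral genes (Glul, Cyp2e1, Cyp1a2, Oat and Slc1a2), none of them a member, and each member was compared between the most periportal and the most pericentral quintile of spots. A member was counted when the levels differed by 25% or more of the lower. In NEJ638, 7 of 9 members were periportal, against 10.2% of the genes, and none pericentral, against 7.33%. Saa2 was 8.19-fold and Saa1 4.14-fold higher on the periportal side, Lcn2 2.70-fold, Orm2 2.34-fold, Orm1 2.10-fold, Hpx 1.84-fold and Hp 1.34-fold. Fga and Fgg differed by 1.11-fold and 1.10-fold.

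In NEJ654, 4 of 10 members were periportal (6.04% of the genes), Hpx at 1.95-fold, Orm1 at 1.48-fold, Lcn2 at 1.40-fold and Saa2 at 1.27-fold, and Saa3 was pericentral at a ratio of 0.746 (15.6% of the genes). The Saa3 ratio rested on 78 and 118 UMIs, and its interval of 0.553 to 1.001 reached 1. The 4 periportal members of NEJ654 became 2 with tertiles of the axis, where Saa2 turned to the other side, and 2 with an axis without Cyp2e1 and Cyp2f2. In NEJ677, 4 of 9 members were periportal (7.14%), Hpx at 1.63-fold, Orm1 at 1.54-fold, Fga at 1.48-fold and Fgg at 1.46-fold, and Orm2 was pericentral at 0.629 (18.6%). Hpx and Orm1 were the members counted as periportal in all 3 tissues with little Afp. The Orm1 and Orm2 ratios of NEJ677 went in opposite directions in spite of their near-identical transcripts.

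In NEJ146 the same lists did not form a lobule axis. The periportal genes Cyp2f2 and Pck1 were themselves lower at the end called periportal, at 0.0704 to 0.208 and 0.267 to 0.379 of the other end, Ass1 was at 1.004 to 1.10, and Hal and Hsd17b13 at 1.05 to 1.41, while Cyp2e1 and Cyp1a2 were at 0.0224 to 0.0513. The split thus separated spots with much from spots with little of the pericentral genes. Of 8 members, 6 (Saa1, Saa3, Hp, Hpx, Orm1 and Lcn2) were higher where the pericentral genes were high, against 17.2% of the genes, and Fga and Fgg were higher at the other end, against 19% of the genes. Hp at the end with little of these genes was at 0.204 to 0.298 of its level at the other, Hpx at 0.329 to 0.394, Orm1 at 0.0989 to 0.204 and Lcn2 at 0.265 to 0.765, while Fga was at 1.254 to 1.31. In all 4 sections the spots with much of the pericentral genes were also deeper, with medians of 21929 to 27393 UMIs against 15366.5 to 20770.0, and the part of depth was not tested.

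The other tissues with high Afp differed from NEJ146 and among themselves. In NEJ687 all 5 periportal genes were higher at the periportal end, Cyp2f2 at 2.42-fold, Pck1 at 1.62-fold and Ass1 at 1.07-fold, and the ratios of the members were 2.71 for Saa2, 2.23 for Saa1, 2.0 for Orm2, 1.16 for Orm1, 1.12 for Hpx and 0.896 for Hp. In NEJ634 they were 3.24 for Saa2, 2.06 for Saa3, 1.41 for Saa1, 1.06 for Hp and 0.773 for Orm1, but the periportal genes did not separate there, with Cyp2f2 and Pck1 at 0.876 and 0.464. In NEJ723 the axis could not be read: Cyp2f2 and Pck1 had intervals of 0.918 to 2.34 and 0.535 to 1.06, Cyp2e1 rested on 1 and 5 UMIs, and the median spot held 19554 UMIs at the periportal end against 5783.5 at the other. The difference between tissues in these ratios was not tested.

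**Figure D4:**
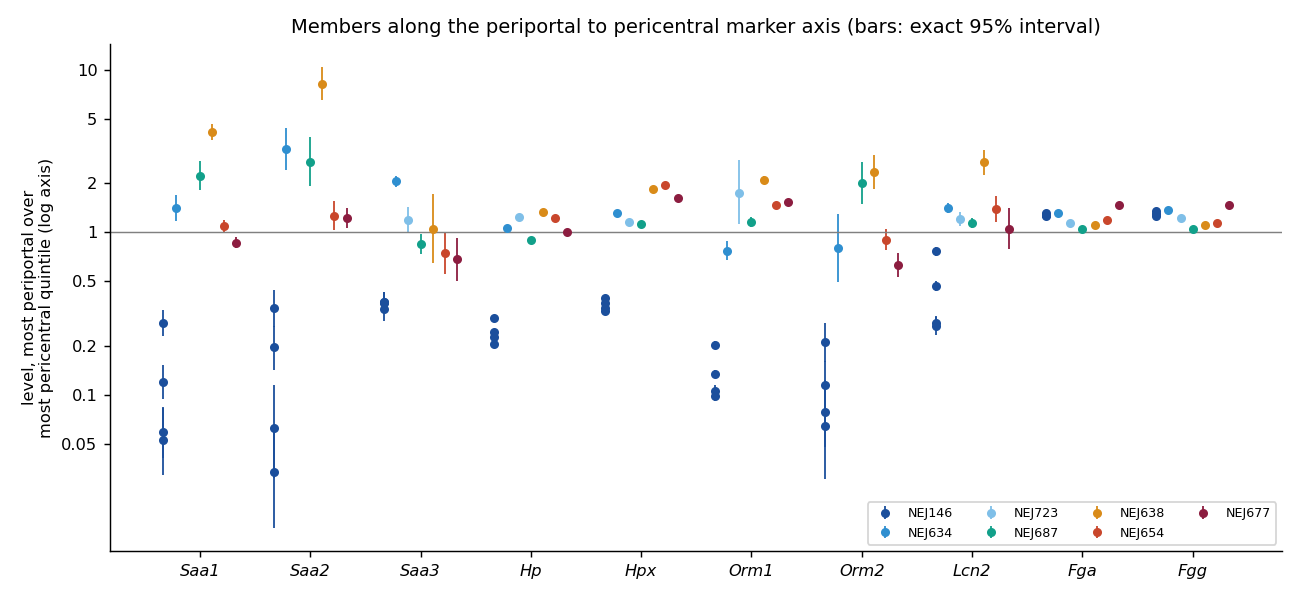
Ratio of each member's level between the most periportal and the most pericentral quintile of spots, on a log axis, by section, with exact 95% intervals as bars. The 4 sections of NEJ146, where the periportal genes themselves did not separate, lie below 1 for all members but Fga and Fgg, and NEJ638 lies at 4.14 for Saa1 and 8.19 for Saa2.

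Pairs of members were compared over spots by Spearman's correlation with the UMI total of the spot partialled out, given as a description since spots share the section and its depth. Hp and Hpx went together in all 7 tissues, at 0.8286 ± 0.0433 (SD, n = 4 sections) in NEJ146, 0.647 in NEJ634, 0.552 in NEJ687 and 0.199 to 0.352 in the others. Fga and Fgg also did, at 0.497 in NEJ146 and 0.191 to 0.565 elsewhere. Of the 19 pairs that could be measured in 6 or more tissues, 9 were positive in every tissue measured. The share among pairs of other genes was not set beside this count, so it is not read as particular to the members.

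What differed was the relation between these groups. Hp and Fga correlated at -0.280 ± 0.0535 in NEJ146, with -0.322 to -0.205 in its sections, against 0.263 in NEJ634, 0.246 in NEJ723 and 0.142 in NEJ638, and between -0.0160 and 0.0779 in the other 3 tissues. In NEJ146 the scavengers Hp and Hpx, Orm1, Lcn2 and the serum amyloid genes correlated positively with each other. Hp and Orm1 were at 0.668 and Hp and Lcn2 at 0.482, but Saa1 and Saa3 at 0.0961 and Saa2 and Saa3 at 0.0705. Hp, Hpx, Orm1, Lcn2 and Saa3 correlated negatively with the fibrinogen chains, at -0.280 to -0.135. Saa1 and Saa2 lay near 0 with these chains, at -0.0725 to -0.0210. In NEJ723, all 15 pairs that could be measured were positive, at 0.0833 to 0.359. No share of other gene pairs stands beside this count either. NEJ723 held 182 tissue spots with fewer than 500 UMIs, which were kept in these correlations.

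**Figure D5:**
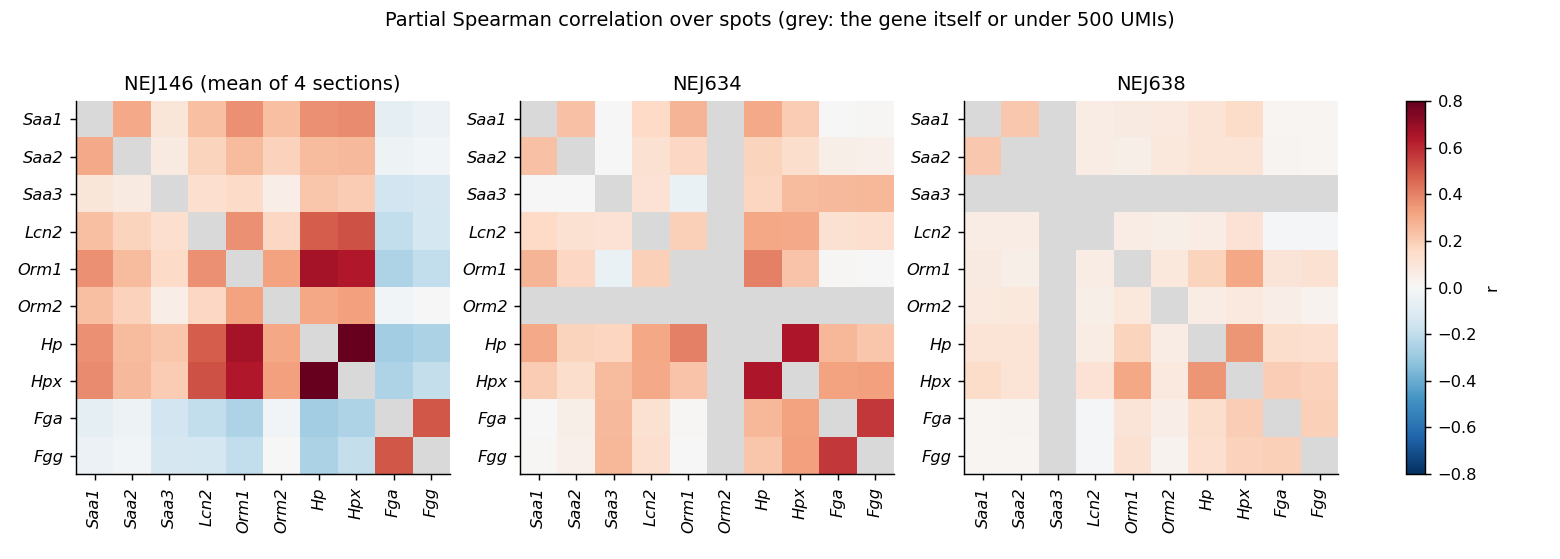
Spearman correlation between members over the tissue spots, with the UMI total of the spot partialled out, in NEJ146, NEJ634 and NEJ638 (red positive, blue negative, grey the gene itself or a gene under 500 UMIs). The rows of Fga and Fgg are blue against Hp and Hpx in NEJ146, at -0.280 for Hp and Fga, and red in NEJ634, at 0.263.

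The genes most like each member over the spots of NEJ146 were sought among 7507 genes at 10 CPM or more that are not members. For Hp they were Alb (0.773), the drug-metabolising cytochrome Cyp3a11 (0.754), the chaperone gene Clu (0.753), the apolipoprotein Apoc3 (0.744) and the glutathione transferase Gstm1 (0.717). Hpx had Alb (0.816), Clu and Cyp3a11 as its nearest, and Orm1 had Cyp3a11 (0.696), Apoc3 and Gstm1. Saa1 and Saa2 were both nearest to Serpina3k, at 0.367 and 0.242. Lcn2 was nearest to Clu (0.523) and Ifitm3, and Saa3 to the tight junction gene Cldn3, at 0.202.

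The fibrinogen chains had other neighbours. Fga was nearest to the fetuin gene Ahsg (0.469), Fgb (0.454) and Igfbp1 (0.412), and Fgg to Fgb (0.556), the kininogen gene Kng1 (0.443) and Ahsg (0.424). The genes least like Hp in NEJ146 were the mitochondrial carrier Slc25a4 (-0.633), the desaturase Scd2 (-0.586), the metallothionein Mt1 (-0.542), Aldh1b1 (-0.531) and Uqcr11 (-0.518). Mt1 is itself counted among the acute phase genes. Over the 6 other tissues the genes nearest to Hp by their mean were Ahsg (0.317) and Apoc3 (0.313), followed by Alb, Bhmt and Apoa5, and the least like Hp were Rps2 (-0.114), Rplp0, Eef1a1, Cyba and Rpl41.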

How the data were processed

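Visium libraries from 10 µm frozen sections had been sequenced, aligned to mm10 and counted by the authors with Cell Ranger 6.0 (NEJ146) or Space Ranger 1.3 (the other tissues), as named in the submitters' processing notes, although the matrix headers name Cell Ranger 4 and the study's methods another Space Ranger version. The deposited matrices hold raw UMI counts for 4989 to 4992 spots of a slide, on and off tissue, with no normalisation.

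Tissue spots were those marked in the 6 deposited position files. No such file was used for NEJ146, whose tissue spots were those with 8000 or more UMIs, and array positions were taken from the same barcodes of the other slides. Counts were summed over tissue spots and scaled to 1000000, with exact 95% intervals and a floor of 3 counts, which cover counting error only. Tissues with 1 section allow no test, so results are descriptions by fixed rules of size: a filter of 10 CPM, a pseudocount of 1 for log2 values, a range beyond 10 times the section spread, a Moran's I of 0.1 between adjacent spots (up to 6) on log values of UMIs per 10000, 2-fold between Hp quintiles, 25% along the lobule axis and 500 UMIs for correlations. Quintiles and patches were set by adjacent spots only, with at least 3 of them. No doublet caller was run on spots.

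The named genes were the 10 members, the genes of the fixed lists, the 3 genes most like each member but Orm2 in NEJ146 and, for Hp, also the 5 most and 5 least like it in NEJ146 and in the other tissues. The members and lists were chosen with earlier results of these data known, among them the high spatial order of Hp in NEJ146. Alternatives were other scalings (median of ratios and TMM), pseudocounts, filters, tissue rules, leaving out each NEJ146 section, thinning to 2000 UMIs, tertiles in place of quintiles and other axis genes. A rule leaving out spots of high mitochondrial share was added after the data were seen. Scripts were tested on simulated data. Python 3.11.15, numpy 2.4.6, scipy 1.17.1, pandas 2.3.3, matplotlib 3.10.9, Biopython 1.88, R 4.3.3 and edgeR 4.0.16 (TMM factors only) were used.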

Additional observations from a re-analysis of the deposited data

Results flagged for a closer look

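Among the 4 sections of NEJ146, the Moran's I of Saa2 was 0.436 in section 4 and 0.213 to 0.237 in the others, a gap that stood out from the range of the group. This was 1 of 30 such groups examined, and chance flags about 1 in 20. Section 4 also held the largest share of Saa1 UMIs in its patches, at 30.0%.

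Correlations between the fibrinogen chains and other members had opposite signs in the 4 sections of NEJ146 and in some other tissues. The tissues set against NEJ146 are those of opposite sign beyond 0.1, and the others are given last. The difference was not tested. For Hp with Fga the mean was -0.280 in NEJ146 against 0.142 to 0.263 in NEJ634, NEJ723 and NEJ638, and for Hp with Fgg -0.251 against 0.137 to 0.311 in the same tissues. Hpx gave -0.247 with Fga and -0.189 with Fgg, against 0.197 to 0.368 and 0.173 to 0.330 in NEJ634, NEJ723, NEJ638, NEJ654 and NEJ677. Orm1 gave -0.247 with Fga and -0.200 with Fgg, against 0.102 to 0.343 and 0.123 to 0.360 in NEJ638, NEJ654 and NEJ677. Lcn2 and Fga correlated at -0.196, against 0.121 to 0.166 in NEJ634 and NEJ723. Saa3 and Fgg correlated at -0.135, against 0.265 in NEJ634. The same sign as in NEJ146 was found in NEJ687 for Hp with Fga (-0.0160) and Fgg (-0.0152), Hpx with Fga (-0.0301) and Fgg (-0.0400) and Saa3 with Fgg (-0.0145), in NEJ634 for Orm1 with Fgg (-0.00274), and in NEJ638 and NEJ654 for Lcn2 with Fga (-0.0139 and -0.0576). The remaining tissues measured gave 0.0107 to 0.0833.

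Spots outside the tissue, which the main comparisons between tissues left out, also held the members. Their summed level, made up mostly of Hp, Hpx, Fga and Fgg, was 6669.8 CPM off tissue against 6305 CPM on tissue in NEJ634, 4314 against 5857 CPM in NEJ723, 11696 against 13212 CPM in NEJ687, 9763 against 9141 CPM in NEJ638, 11599 against 12201 CPM in NEJ654 and 14309 against 14160.0 CPM in NEJ677. The median off-tissue spot of these 6 slides had 6659.5 to 11895 UMIs, so these slides carry transcripts beyond the marked tissue. Single members differed more, such as Orm1 in NEJ634 at 81.1 CPM off tissue and 44.8 CPM on it. The part of such transcripts in the patterns over tissue was not tested.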

How the results depend on the processing

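The count of members beyond the section spread, 7 as reported, was 4 among genes with a mean of 50 CPM or more, 3 at 20 times the spread, and 5 to 9 when an NEJ146 section was left out, with 5 without section 2 or section 3 and 9 without section 4. Saa2, Saa3 and Orm2 do not reach 50 CPM and left the count there. The share of all genes was not set beside these counts, so they are not read as a change particular to the members. The count of member and tissue pairs ordered in space, 52, was 16 when spots were thinned to 2000 UMIs and 52 with any 1 NEJ146 section left out. The Hp ratio of 7.0 in NEJ146 was 5.52 between tertiles and 6.80 to 7.45 with a section left out. Periportal members in NEJ654, 4 as reported, numbered 2 with tertiles and 2 with an axis without Cyp2e1 and Cyp2f2. Some axis ratios turned in sign, among them that of Saa2 in NEJ654, a member counted as periportal there, from 0.34. With tertiles the log2 axis ratio of Saa1 in NEJ654 was -0.0693, the log2 axis ratio of Saa2 in NEJ654 -0.0325, the log2 axis ratio of Hp in NEJ677 -0.0521 and the log2 axis ratio of Lcn2 in NEJ677 -0.19. With the axis without Cyp2e1 and Cyp2f2 the log2 axis ratio of Saa2 in NEJ677 was -0.11 and that of Lcn2 -0.0750, and without spots of high mitochondrial share that of Lcn2 was -0.0291. The cause was not tested. Of 818 other values, 714 stayed within a set limit, 97 moved beyond it and 7 are those that turned. The limit was the SD over the NEJ146 sections, a fixed log2 difference for axis ratios or a fixed fold for counts. The Hp ratios of the other tissues were held to the NEJ146 SD too, which is wide for such small ratios. The highest tissue of Saa1, Saa2, Saa3, Hpx, Orm1, Lcn2 and Fga was kept in all 13 alternatives, and that of Hp, Orm2 and Fgg in 11. No paired analysis was possible because each tissue but NEJ146 is a single section and no result comes from a test. Depth limits Saa1, Saa2 and Orm2 in NEJ723, counted on 24, 7 and 2 UMIs, and the unmarked tissue edge of NEJ146 limits its low spots.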

Other observations

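Other acute phase genes had tissue patterns of their own. A2m, the broad protease inhibitor alpha-2-macroglobulin, stood at 13.5 CPM in NEJ146, 281 CPM in NEJ634, 273 CPM in NEJ723 and 67.9 CPM in NEJ687, and at 0.153 to 0.918 CPM in NEJ638, NEJ654 and NEJ677. Crp, which encodes C-reactive protein, ran the other way, at 68.8 to 123 CPM in the first 4 of these tissues and 348 to 419 CPM in the last 3, and Serpina3m at 22.1 to 59.1 and 137 to 289 CPM. Mt1 was lowest in NEJ677, at 337 CPM, where Saa1 was highest, and reached 2906 CPM in NEJ723, where Saa1 was lowest, but was next highest, at 2539 CPM, in NEJ654, where Saa1 was next to highest. The hemopexin receptor gene Lrp1 was at 133 to 271 CPM in NEJ146, NEJ634, NEJ723 and NEJ687 and 364 to 401 CPM in the others, and Cd163, which takes up haptoglobin with hemoglobin, was at 1.12 to 9.41 CPM.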
